A study of Mus musculus with 12 samples.

Results

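Eomes, Prf1, Ctsw and Klrd1, 4 genes best known from cytotoxic lymphocytes, were followed through sorted naive CD4 T cells of untreated mice. The 4 were selected on their measured values in these libraries, by symbol, out of 10073 genes in the deposited table, and all 4 passed the filter on low values that left 10021 genes for testing. Their levels and differences below are therefore a description, and no test was made on them. Eomes was at 8.73 RPKM or more in population D and at 0.475 or less in population C, and Prf1, Ctsw and Klrd1 were lower in D than in C.

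Eomes encodes Eomesodermin, a T-box transcription factor best known from effector and memory CD8 T cells and natural killer (NK) cells, where it helps to switch on the killing programme. Prf1 encodes perforin, the protein of cytotoxic granules that opens pores in the membrane of a target cell. Ctsw encodes cathepsin W, a cysteine protease of CD8 T and NK cells, and Klrd1 encodes CD94, the chain that pairs with NKG2 proteins to form receptors for a non-classical class I molecule.

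The study measured polyadenylated RNA in 12 libraries, 4 sorted populations from each of 3 mice, in cells of spleen and lymph nodes that received no stimulus of the T cell receptor (TCR). Every mouse carried the Tg(Nr4a1-EGFP)GY139Gsat transgene, in which green fluorescent protein (GFP) follows the TCR-responsive gene Nr4a1, and the Foxp3tm1Flv allele, a red fluorescent Foxp3 reporter, on a C57/BL6 background. Ages are not given in the labels, nor is any pooling of animals. All cells were gated as CD4+, Foxp3-RFP negative and CD44lo, which is a gate against regulatory and memory-phenotype cells in all 4 populations. Population D was GFPhi and Ly6C negative, C was GFPint and Ly6C negative, B was GFPint and Ly6C+, and A was GFPlo and Ly6C+, with 3 libraries each. D1 stands for population D of mouse 1, and so on. Values are RPKM, reads per kilobase of gene length and M mapped reads (M standing for mega), as deposited by the authors. The depth recovered from the values was 6.31 to 9.07 M reads a library.

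The markers that define CD4 T cells (Cd4, Cd3d, Cd3e, Cd3g, Cd28 and Zbtb7b) were all present, with a summed level of 1219 to 1242 RPKM in D, 1136 to 1242 in C, 1204 to 1220 in B and 1205 to 1226 in A. The transcripts of the sort went partly against the labels. Nr4a1 was at 58.7, 64.7 and 67.8 RPKM in D1, D2 and D3, at 26.3, 28.3 and 23.4 in C1, C2 and C3, at 36.0, 73.3 and 64.6 in B1, B2 and B3, and at 57.7, 26.1 and 22.9 in A1, A2 and A3. The library labelled A1 thus stood with the D libraries, and so did B2 and B3, although B is labelled GFPint. The library labelled B1 stood below B2 and B3 and above C, and C stood near A2 and A3. Ly6c1, one of the genes for Ly6C, was at 38.2 to 48.4 RPKM in D, 59.3 to 67.0 in C, 37.1 to 50.2 in B and 58.1 to 72.6 in A. By this transcript B, labelled Ly6C+, stood with D, and C, labelled Ly6C negative, stood with A, so that Ly6c1 was lower in D than in C and in B than in A in 3 of 3 mice each. Whether the labels of B and C are exchanged was not tested. The letters below are those of the labels, and no comparison below lies within 1 level of Ly6c1 except by label. C3 stood apart by plasma cell and B cell genes, with Jchain at 709 RPKM, against 0.515 to 6.33 in the other 11 libraries, and Cd79a at 37.4, against 3.57 to 8.80. Hbb-bs, a globin gene of red cells, was at 6.98, 14.0, 4.78 and 12.7 RPKM in A1, B1, C2 and D2, against 79.1 to 111 in the other 8, so these 4 libraries stood apart across mouse numbers. Differences within a mouse below go by the labelled number. The members' differences are given with and without A1 and B1, and those between D and C also without C3.

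RefSeq promoter windows were given for 2 of the 4 genes, Eomes and Prf1. They are shown because Eomes protein binds T-box sites and because perforin is a textbook target of T-box and Runx factors in CD8 T cells. The first 250 bases of each window were searched on both strands. The letters were the T-box core TCACAC (reverse GTGTGA), the longer T-box site AGGTGTGA (reverse TCACACCT, which contains the core) and the Runx site TGTGGT (reverse ACCACA). In the windows below, from RefSeq on GRCm38.p6, capitals mark a match. Each printed stretch (247 bases for Eomes, 165 for Prf1) ends before the first annotated start of the gene. All 250 bases were searched, so the search ran past that start, most of all in Prf1. Eomes is at chr9:118477939-118478185 (+ strand) and Prf1 at chr10:61297586-61297750 (+ strand).
Eomes: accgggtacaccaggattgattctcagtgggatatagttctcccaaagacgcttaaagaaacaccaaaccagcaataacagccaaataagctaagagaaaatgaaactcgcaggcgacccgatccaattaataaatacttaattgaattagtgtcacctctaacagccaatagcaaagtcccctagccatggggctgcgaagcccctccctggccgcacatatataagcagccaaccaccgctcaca
Prf1: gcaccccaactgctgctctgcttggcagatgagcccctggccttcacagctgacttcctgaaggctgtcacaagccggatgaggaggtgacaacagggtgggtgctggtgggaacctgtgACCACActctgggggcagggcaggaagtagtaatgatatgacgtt
The Prf1 window held 1 Runx match and no T-box match, and the Eomes window held no match to any of the 3. Over all 32851 windows of 250 bases, 12.29% held the T-box core, 1.12% the longer T-box site and 14.05% the Runx site. A match is a stretch of letters and does not show binding.

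Eomes (Entrez 13813) was at 9.30, 8.73 and 10.2 RPKM in D1, D2 and D3, against 0.475, 0.338 and 0.218 in C1, C2 and C3. Every D library stood far above every C library. These values rested on 467, 442 and 534 reads in D, against 26, 14 and 9 in C, so the C levels are the less precise. In bulk RNA, fewer cells of a type and less RNA per cell cannot be told apart, so a level of Eomes in C may come from few cells or from little RNA in each. The mean was 9.41 ± 0.74 RPKM in D and 0.344 ± 0.129 in C (SD, n = 3 each), a ratio of 27.4. On the log2(RPKM + 0.5) scale, where a low gene shows less than its full fold, the difference D minus C was 3.56 ± 0.86 (SE, limma over 12 libraries) and 3.56 ± 0.12 without A1 and B1, which leaves their spread out, and it was 3.33, 3.46 and 3.90 in mice 1, 2 and 3. In D, 39.4% of the genes tested had a lower mean level than Eomes, and in C 0.2% did. The filter kept genes by their mean over 12 libraries, and Eomes passed it through the libraries where it was high. Genes low in every library were left out, so the rank of Eomes in C is in part set by the filter.

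Between the populations labelled B and A, the direction of the Eomes difference turned in the pair A1 and B1. D1 and C1, of the same labelled mouse, stood with the other D and C libraries, so an effect of the mouse is not shown. It was at 0.829, 10.5 and 9.25 RPKM in B1, B2 and B3, against 7.62, 0.298 and 0.315 in A1, A2 and A3. The ranges of B and A overlapped only through mouse 1, in which B was the lower of the pair. B minus A was -2.61 on the log2 scale in mouse 1, 3.78 in mouse 2 and 3.58 in mouse 3. The mean difference was 1.59 ± 0.86 (SE) over 12 libraries and 3.68 ± 0.15 without A1 and B1, so these libraries decide its size. In Nr4a1 too, A1, labelled GFPlo, stood with the D libraries, and B1 stood below B2 and B3. By that transcript B2 and B3, labelled GFPint, stood at the level of D, so B1 is not shown to be the mislabelled one of B.

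Of the comparisons across the sort, D minus A and C minus B share their libraries with D minus C and B minus A. D minus A for Eomes was 2.51 ± 0.86 (SE) over 12 libraries and 3.62 ± 0.14 without A1 and B1. C minus B was -2.64 ± 0.86 over 12 libraries and -3.63 ± 0.14 without A1 and B1. By mean the order was D, B (6.86 ± 5.26 RPKM), A (2.74 ± 4.22) and C. D did not overlap with C or A, and neighbours in this order overlapped in the cases of D and B, B and A, and A and C. No library lay between 0.829 RPKM (B1) and 7.62 RPKM (A1), so the 12 values fall into separate sets of libraries.

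**Figure D1:**
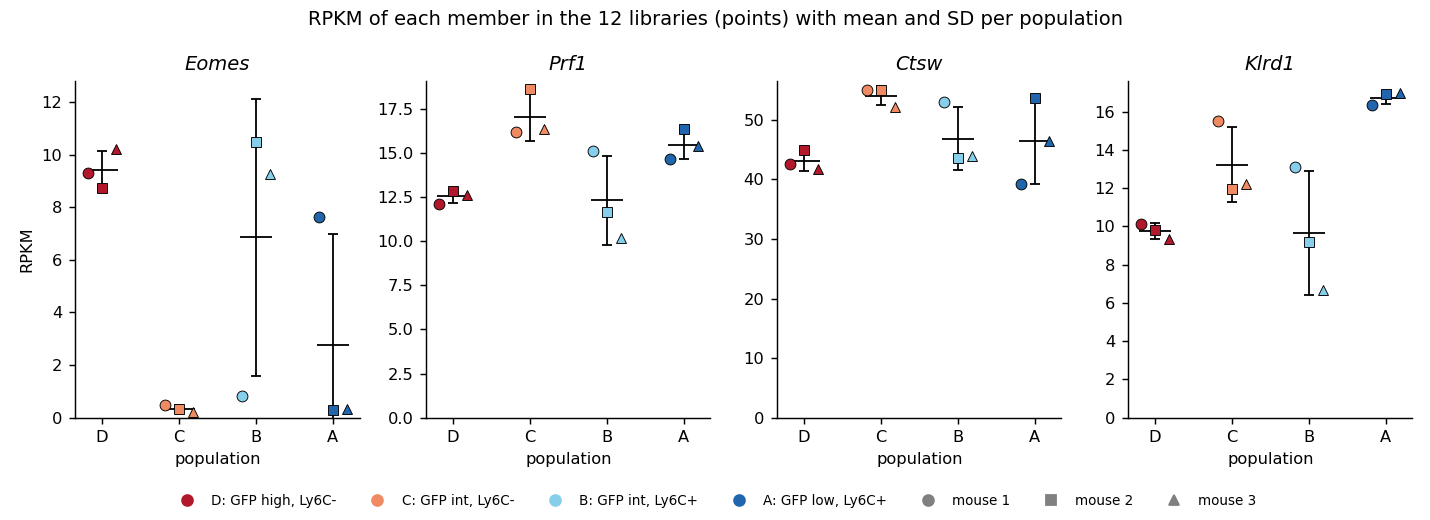
RPKM of Eomes, Prf1, Ctsw and Klrd1 (y axes, from 0) by population (x axis), with a point for each library, a long line at the mean and bars of 1 SD over 3 libraries, cut at 0. Eomes is at 8.73 RPKM or more in all D libraries and at 0.475 or less in all C libraries, while A1 (7.62) and B1 (0.829) stand apart from their populations.

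Prf1 (Entrez 18646), the pore-forming effector, ran the other way with a far smaller span. It was at 12.1, 12.9 and 12.6 RPKM in D1, D2 and D3, against 16.2, 18.7 and 16.4 in C1, C2 and C3. No D library reached the lowest C library. In the populations labelled B and A it was at 15.1, 11.7 and 10.2 RPKM in B1, B2 and B3, against 14.7, 16.4 and 15.4 in A1, A2 and A3. B2 and B3 stood below every A library, and B1 lay inside the range of A. The mean was 12.5 ± 0.37 RPKM in D and 17.1 ± 1.37 in C (SD, n = 3 each), a ratio of 0.735, and 12.3 ± 2.54 in B and 15.5 ± 0.84 in A. By mean the order was C, A, D and B, and C and A overlapped, as did D and B.

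The Prf1 difference D minus C was -0.43 ± 0.11 (SE) over 12 libraries and -0.43 ± 0.07 without A1 and B1 on the log2 scale and was negative in 3 of 3 mice. B minus A was -0.34 ± 0.11 over 12 libraries and -0.52 ± 0.09 without A1 and B1, with mouse 1 at 0.04. D minus A was -0.29 ± 0.11 over 12 libraries and -0.33 ± 0.08 without A1 and B1, and negative in 3 of 3 mice. C minus B was 0.47 ± 0.11 over 12 libraries and 0.62 ± 0.08 without A1 and B1, and positive in 3 of 3 mice.

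Ctsw (Entrez 13041), the granule-associated protease gene, was the highest of the 4 per length. It was at 42.7, 45.0 and 41.7 RPKM in D1, D2 and D3, against 55.0, 55.1 and 52.2 in C1, C2 and C3. The D and C libraries did not overlap. It was at 53.0, 43.6 and 44.0 RPKM in B1, B2 and B3, against 39.2, 53.6 and 46.4 in A1, A2 and A3. A1 was the lowest of the 12 libraries, and all B libraries lay within the range of A. The mean was 43.1 ± 1.67 RPKM in D and 54.1 ± 1.61 in C, a ratio of 0.797, and 46.9 ± 5.29 in B and 46.4 ± 7.22 in A (SD, n = 3 each). By mean the order was C, B, A and D, and each neighbouring pair overlapped.

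D minus C for Ctsw was -0.32 ± 0.10 (SE) over 12 libraries and -0.32 ± 0.06 without A1 and B1 and negative in 3 of 3 mice. B minus A was 0.02 ± 0.10 over 12 libraries and -0.19 ± 0.07 without A1 and B1, and the mice gave 0.43, -0.30 and -0.08. D minus A was -0.09 ± 0.10 over 12 libraries and -0.21 ± 0.06 without A1 and B1. C minus B was 0.21 ± 0.10 and 0.30 ± 0.06 without A1 and B1. Over all libraries the Ctsw difference between B and A was thus smaller than its error.

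Klrd1 (Entrez 16643), the CD94 gene, was at 10.1, 9.80 and 9.35 RPKM in D1, D2 and D3, against 15.5, 12.0 and 12.2 in C1, C2 and C3. It was at 13.1, 9.18 and 6.70 RPKM in B1, B2 and B3, against 16.4, 16.9 and 17.0 in A1, A2 and A3. Here A1 stood with A2 and A3, unlike in Eomes, and B stood below A in all 3 mice. The values rested on 48 (B3) to 139 (A2) reads a library, the fewest of the 4 genes outside the libraries where Eomes was low, since Klrd1 is short (925 bases in the table).

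The Klrd1 mean was 9.77 ± 0.40 RPKM in D and 13.2 ± 1.97 in C, a ratio of 0.738, and 9.67 ± 3.24 in B and 16.7 ± 0.33 in A, a ratio of 0.577 (SD, n = 3 each). By mean the order was A, C, D and B. A lay above each of the others without overlap, C lay above D without overlap, and B, the most spread, overlapped both C and D. D minus C was -0.41 ± 0.17 (SE) over 12 libraries and -0.41 ± 0.12 without A1 and B1. B minus A was -0.81 ± 0.17 over 12 libraries and -1.06 ± 0.14 without A1 and B1. D minus A was -0.75 ± 0.17 over 12 libraries and -0.77 ± 0.13 without A1 and B1. C minus B was 0.47 ± 0.17 over 12 libraries and 0.71 ± 0.13 without A1 and B1.

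Base composition moved with the comparisons against A and, in mouse 1, with C minus B. The Klrd1 transcripts had 35.8% G and C, against 53.9% in Eomes, 53.6% in Prf1, 54.6% in Ctsw and a median of 49.4% over the genes with a value. Taken over 9846 genes (genes share libraries and are no replicates), the B minus A difference correlated with G and C content at r = 0.38, 0.31 and 0.37 in mice 1, 2 and 3, the D minus A difference at 0.16, 0.28 and 0.35, the D minus C difference at 0.01, -0.07 and -0.03, and the C minus B difference at -0.42, 0.03 and 0.03. With the trend in G and C content and length removed from each library, B minus A for Klrd1 was -0.49 ± 0.17 (SE), and D minus A was -0.56 ± 0.17. Klrd1 C minus B was then 0.375 ± 0.173.

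**Figure D2:**
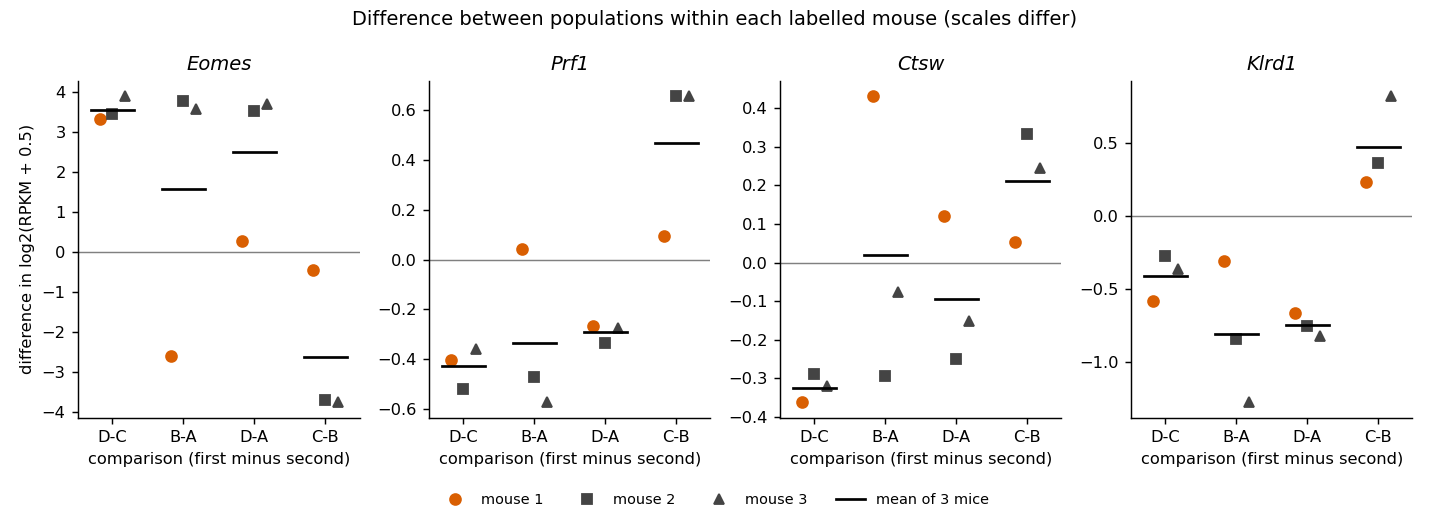
Difference in log2(RPKM + 0.5) between populations within each labelled mouse (points) and the mean of 3 mice (line), for the 4 genes, on y axes that differ in scale, with the comparison on the x axis. For Eomes the D minus C points lie at 3.33, 3.46 and 3.90, while B minus A is -2.61 in mouse 1 against 3.78 and 3.58 in mice 2 and 3.

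Across the 12 libraries the 3 effector and receptor genes tracked one another unevenly. The correlation of log2 values was r = 0.79 for Prf1 with Klrd1, 0.72 for Prf1 with Ctsw and 0.39 for Ctsw with Klrd1 (Pearson, n = 12 libraries, which are shared by all genes and come from 3 mice). No pooled correlation is given for Eomes with these 3, because its values fall into separate sets. The highest Prf1 level, 18.7 RPKM in C2, stood beside 0.338 RPKM of Eomes, and the lowest, 10.2 in B3, beside 9.25. The highest Klrd1 levels stood in A2 and A3 at low Eomes and in A1 (16.4) at an Eomes level of 7.62, so A1 did not follow the other libraries there.

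**Figure D3:**
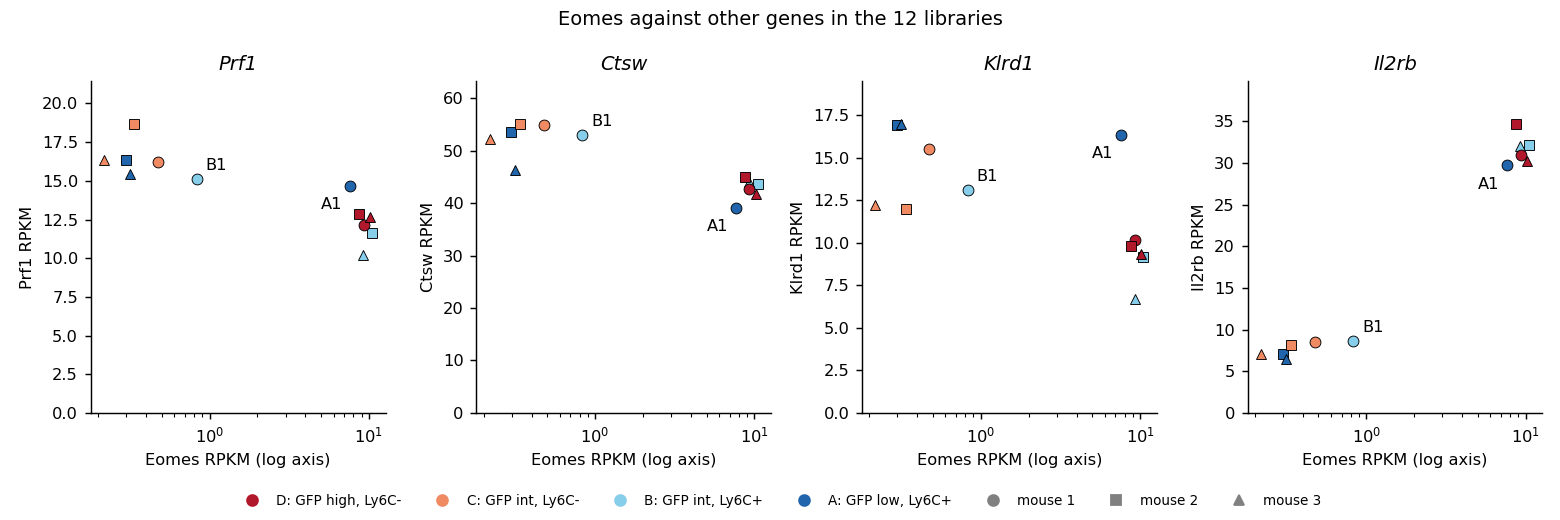
RPKM of Prf1, Ctsw, Klrd1 and Il2rb (y axes, from 0) against RPKM of Eomes (x axis, log scale), with a point for each of the 12 libraries and A1 and B1 named. Il2rb is at 29.7 RPKM or more in every library where Eomes is at 7.62 or more, and A1 is the library where Klrd1 (16.4) is high beside high Eomes.

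The genes whose log2 levels were most like Eomes over the 12 libraries, by Pearson's r, were Itih5 (0.998), Nr4a3 (0.996), Myb (0.995), Il2rb (0.994) and Sox4 (0.994), and each r rests on the same separate sets of libraries. Nr4a3 is a TCR-responsive relative of Nr4a1, and Myb and Sox4 encode transcription factors. Nearest to Prf1 were Hspa9 (0.966), Tagln2 (0.960), Epas1 (0.947), Kif23 (0.947) and Saraf (0.946). Nearest to Ctsw were Treml2 (0.954), Larp1 (0.935), Esyt1 (0.934), Selplg (0.932) and Pdlim1 (0.931). Nearest to Klrd1 were Pdlim5 (0.954), Scrn3 (0.950), Tmem123 (0.931), Trim44 (0.931) and Selenop (0.930). None of the 4 members was allowed in these sets, and genes with clone or predicted-gene names were left out before ranking.

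Il2rb encodes the beta chain shared by the receptors for interleukin 2 and interleukin 15, and Eomes is reported to induce it in CD8 T cells. It was at 30.9, 34.6 and 30.3 RPKM in D1, D2 and D3, against 8.47, 8.17 and 7.02 in C1, C2 and C3. It was at 8.61, 32.2 and 32.0 RPKM in B1, B2 and B3, against 29.7, 7.10 and 6.53 in A1, A2 and A3. Its libraries divided as those of Eomes did, mouse 1 included. D minus C was 1.95 ± 0.53 (SE) in the fit of 12 libraries, with a limma adjusted p of 0.11 (Benjamini-Hochberg over 10021 genes). In the fit of the 6 D and C libraries alone it was 1.95 ± 0.09, with a limma adjusted p of 1.57e-05, so Il2rb passed there. B minus A for Il2rb was 0.86 ± 0.53 over 12 libraries (adjusted p = 0.346) and 2.16 ± 0.10 without A1 and B1 (adjusted p = 1e-06, limma, Benjamini-Hochberg). A1 and B1 were left out because of their values, and Il2rb divided the libraries as Eomes did. Leaving them out thus sets B and A apart in Il2rb, and the smaller p is no support for a difference.

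Outside the 4 members, 41 genes of other lists were tested: 16 of cytotoxic effectors, 7 of killer cell receptors and 18 of transcription factors of effector and memory T cells. The full lists held 34, 37 and 24 genes, of which 18, 8 and 19 were in the deposited table, members included. Counts and shares below cover only the genes tested. They are not all genes of killing. The factor list also holds Tcf7, Lef1, Bach2, Foxo1, Klf2 and Zbtb7b, the last a CD4 T cell marker above. Tbx21, the granzymes Gzma, Gzmb, Gzmk and Gzmm, Ifng, Nkg7, Ccl5 and the receptors Klrc1, Klrk1, Klrb1c and Ncr1 were not analysed here. In the fit of 12 libraries, limma with Benjamini-Hochberg adjustment called none of the 41 between D and C, where 0.00998% of all genes were called, and 14 of the 41 were below an unadjusted p of 0.05, as were 1817 of all 10021. In the 6 libraries alone it called 7 of the 41, which is 17.1% of them against 4.80% of all genes, 6 higher and 1 lower in D. Most of these calls, 4 higher and 1 lower, were transcription factors, so the share is not one of effectors or receptors. Without A1 and B1 limma called 8 of the 41, which is 19.5% against 7.63% of all genes, 7 higher and 1 lower. With the mouse as a replicate block, a fit added after the data were seen, the 6 libraries gave 9 of 41 beside 641 of all genes, and Cd160 of the 7 genes did not pass. The median difference of the 41 was 0.14 on the log2 scale, beside 0.01 over all genes.

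Among the transcription factors, 4 rose and 1 fell in D against C in the 6 libraries alone. Id3, an inhibitor of E proteins that is itself induced by TCR signals, rose to 38.6 to 47.8 RPKM in D, against 23.7 to 25.9 in C, a log2 difference of 0.81 ± 0.08 (SE; limma adjusted p = 0.0009). Tox, a nuclear factor of T cells under lasting TCR stimulation, rose to 12.7 to 13.8 RPKM in D, against 6.01 to 8.05 in C (0.84 ± 0.11). Bhlhe40, an activation-induced repressor, reached 1.26 to 1.62 RPKM in D, against 0.613 to 0.656 in C (0.81 ± 0.13), and Hopx, a homeodomain-only cofactor, 4.85 to 5.42 in D against 3.04 to 3.68 in C (0.52 ± 0.10). Runx3, the factor of the cytotoxic lineage, fell to 17.5 to 20.0 RPKM in D, against 22.7 to 24.5 in C (-0.35 ± 0.07; limma adjusted p = 0.0263). Runx3 thus had the direction of the Prf1, Ctsw and Klrd1 levels, while Id3, Tox, Bhlhe40 and Hopx had that of Eomes.

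Of the 16 cytotoxic effectors, 1 rose and none fell in D against C in the 6 libraries, where 4.80% of all genes were called, so a single call in 16 is near the background. Their median difference was 0.08. The gene called was Serpinb6b, a serpin related to inhibitors of granule proteases, at 4.77 to 5.46 RPKM in D, against 2.70 to 3.70 in C (0.56 ± 0.12; limma adjusted p = 0.038). Fas ligand (Fasl), named after its values were seen because it passed without A1 and B1, was at 5.49 to 6.50 RPKM in D, against 3.87 to 5.13 in C (0.42 ± 0.11; limma adjusted p = 0.0431 without A1 and B1), and without them Serpinb6b was at an adjusted p of 0.0523. The genes that move and dock granules did not pass between D and C, with Rab27a at 25.9 to 27.0 RPKM in D and 24.8 to 28.0 in C, and Unc13d at 47.1 to 52.8 in D and 47.0 to 53.5 in C. Serglycin (Srgn), the granule proteoglycan, was at 124 to 129 RPKM in D and 111 to 124 in C, and Tnf at 9.10 to 10.9 in D and 9.81 to 10.5 in C.

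Of the 7 killer cell receptor genes, 1 rose in D against C in the 6 libraries, beside 4.80% of all genes, and their median difference was 0.23. This single call was Cd160, a receptor of NK and T cells, at 1.44 to 2.14 RPKM in D, against 0.710 to 1.17 in C (0.77 ± 0.17; limma adjusted p = 0.0457), and it did not pass with the replicate block. Without A1 and B1, Cd160 passed again (adjusted p = 0.0161) and Cd96, which binds the same ligand as Tigit and Cd226, passed too, at 45.5 to 48.3 RPKM in D against 36.5 to 42.8 in C (0.23 ± 0.06; limma adjusted p = 0.0421). Tigit was at 3.72 to 6.62 RPKM in D and 1.36 to 4.11 in C and did not pass. Slamf7 was at 2.33 to 2.47 RPKM in D and 0.205 to 16.6 in C, where the top value is that of C3. The only receptor gene of this list that is also a member, Klrd1, thus had a lower level in D while Cd160 rose.

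**Figure D4:**
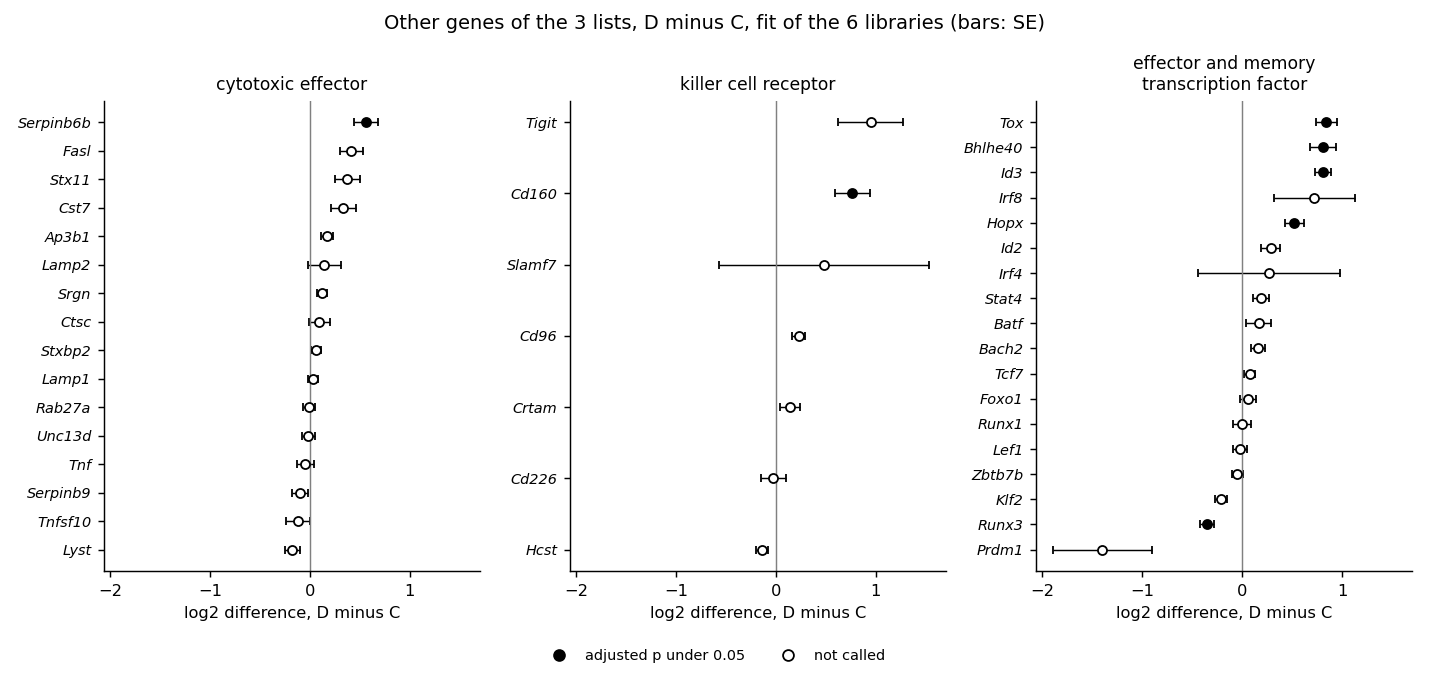
Log2 difference D minus C (x axis, on log2(RPKM + 0.5)) with bars of 1 SE for the 16 cytotoxic effector, 7 killer cell receptor and 18 transcription factor genes in the fit of the 6 D and C libraries, with filled points for an adjusted p under 0.05. The 7 filled points are Serpinb6b, Cd160, Tox, Bhlhe40, Id3 and Hopx on the positive side and Runx3 on the negative side, and the wide bars of Irf4, Slamf7 and Prdm1 belong to genes that are high in C3.

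Between B and A, limma called none of the 41 in the fit of 12 libraries, where 2.23% of all genes were called (223 genes, or 2 with the mouse as a replicate block), and 8 of the 41 were below an unadjusted p of 0.05, as were 2313 of all genes. The 6 libraries alone gave 1 of 41, which is 2.44% against 3.79% of all genes: Cd226, an activating receptor, fell to 13.0 to 14.2 RPKM in B, against 17.2 to 18.8 in A (-0.41 ± 0.06; limma adjusted p = 0.0217). With the mouse as a replicate block the 6 libraries gave 0 of 41 and 0 of all genes in limma, with 6 and 1846 below an unadjusted p of 0.05, so Cd226 did not pass there. Without A1 and B1, 10 of 41 were called, which is 24.4% against 10.9% of all genes, 6 higher and 4 lower in B. Named after their values were seen, Id3, Tox, Hopx, Bhlhe40, Stx11 and Tigit were those higher, and Serpinb9, Lyst, Runx3 and Cd226 those lower. Stx11 encodes a syntaxin of granule release, Serpinb9 the inhibitor of granzyme B and Lyst a regulator of lysosome-related granules. Serpinb9 had the largest fall of the 4, with -0.77 ± 0.09 (SE; limma adjusted p = 0.000659 without A1 and B1), and was at 3.73 to 5.18 RPKM in B, against 5.04 to 7.12 in A over all libraries. Its limma adjusted p was 0.0633 over 12 libraries and 0.113 in the 6 libraries alone. A1 and B1 were left out because of their values, so the calls without them are no support for a difference between B and A.

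Between D and A, none of the 41 was called by limma over 12 libraries, against 0.00998% of all genes, with 9 of 41 and 1905 of all genes below an unadjusted p of 0.05. The 6 libraries alone also gave none, against 0.0299% of all genes, with 13 of 41 and 2232 of all genes below an unadjusted p of 0.05. Without A1 and B1, 9 were called, 22.0% against 8.84% of all genes, 6 higher and 3 lower in D. With the replicate block as well, 13 of 41 and 1665 of all genes were called. Between C and B, none was called over 12 libraries, against 0.00998% of all genes, or in the 6 libraries alone, against 0.0% of all genes, with 4 and 3 of 41 below an unadjusted p of 0.05 and 1342 and 1030 of all genes. Without A1 and B1, 7 were called, 17.1% against 7.74% of all genes, 3 higher and 4 lower in C. The calls without A1 and B1 rest on leaving out libraries because of their values.

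Whether the D minus C step differed from the B minus A step was tested by limma as a difference of differences. None of the 41 was called over 12 libraries or without A1 and B1, where 0.0% of all genes were called in both fits. Below an unadjusted p of 0.05 were 9 of 41 and 1507 of all genes over 12 libraries, and 5 of 41 and 1068 of all genes without A1 and B1. The smallest p over 12 libraries was that of Srgn, with a difference of steps of 0.29 ± 0.09 (adjusted p = 0.204, limma, Benjamini-Hochberg). An effect called between D and C and not between B and A is therefore not shown to differ between them.

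Markers of other cells that carry these genes were examined for every library. Of 10 NK cell markers only Eomes and Prf1 were in the table, and of 5 gamma delta T cell markers none was, and the rest were not analysed here. Of the CD8 T cell pair, Cd8b1 was measured, at 10.2 to 11.2 RPKM in D, against 12.7 to 16.0 in C, and at 9.94 to 11.5 in B, against 13.3 to 14.6 in A. Cd8b1 fell in D against C in the 6 libraries alone (-0.44 ± 0.09; limma adjusted p = 0.0354) and in B against A (-0.35 ± 0.07; adjusted p = 0.0439, limma), so it was lower where Prf1 and Klrd1 were lower, while Ctsw was lower in D than in C but not in B than in A over all libraries. Over 12 libraries the adjusted p of Cd8b1 was 0.106 for D against C and 0.0554 for B against A (limma). With the mouse as a replicate block, the 6 B and A libraries gave 0 of all genes, so Cd8b1 did not pass there. The part of Cd8b1 in the levels of Prf1, Ctsw and Klrd1 was not tested. Of 4 markers of NKT and innate-like T cells, Il2rb and Cd160, both described above, were measured and summed to 31.7 to 36.5 RPKM in D, against 8.19 to 9.18 in C, and to 9.24 to 33.5 in B, against 7.61 to 31.7 in A. Foxp3, Il2ra, Ctla4 and Ikzf2, all 4 regulatory T cell markers, summed to 34.1 to 43.6 RPKM in D, against 8.20 to 13.4 in C, and to 10.2 to 41.8 in B, against 9.17 to 45.7 in A. The regulatory sum was highest in A1 through Ctla4 (34.5 RPKM), its largest part, while Foxp3, Il2ra and Ikzf2 were each highest in B2. Both sums moved with Eomes, and their part in the Eomes levels was not tested. Il2rb, the larger part of the other sum, was already among the genes most like Eomes. The plasma cell genes of C3 left the members' D minus C differences close to those above: without A1, B1 and C3 they were 3.45 ± 0.12 for Eomes, -0.46 ± 0.08 for Prf1, -0.35 ± 0.06 for Ctsw and -0.46 ± 0.13 for Klrd1 (SE).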

How the data were processed

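The 12 libraries (4 populations, 3 mice) were made with the SMART-seq v4 and NexteraXT kits from sorted cells, per the labels' protocols. The submitters' processing notes name STAR and the builds mm9 and mm10, with no role or version. Not given in the sources used here: the counting tool, annotation and strand use. The authors deposited RPKM for 10073 genes, per the file headers, with a gene length in another column of the deposited table. RPKM are not counts, so the tests used log2(RPKM + 0.5).

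The 10021 genes whose mean over the libraries reached 0.5 RPKM were fitted with limma 3.58.1 (R 4.3.3) with a mean-variance trend, population as the only term, over all 12 libraries, with Benjamini-Hochberg adjustment within a comparison and a threshold of 0.05. Further fits used the 6 libraries compared, or left out A1 and B1, or A1, B1 and C3. Other alternatives were each library left out in turn, the mouse as a replicate block, pseudocounts of 0.1 and 1, no filter or one at 5 RPKM, and median and quantile scaling. Chosen after seeing the data were removing a trend in transcript G and C content (9846 genes, 98.3%) and length, limma-voom on recovered reads, and the block in the smaller fits. RPKM gave whole reads within 0.1 read for 100.0% of 9480 to 9873 values a library. The steps were tested on simulated data.

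The labels give the same mouse to libraries of 1 number. Deviations from the population means correlated at a mean r of -0.07 (-0.61 to 0.38) between libraries of the same mouse, with 1 of 18 pairs over 0.1. Between different mice the mean r was 0.03 (-0.42 to 0.51), with 13 of 36 pairs over 0.1. Without the block, the p-values measure the spread of libraries within populations, taken as independent although they come from 3 mice. With the block, they measure the spread left after the labelled mouse. The 4 genes and the gene lists were chosen with earlier results of these data known. List genes were named where they passed over 12 or 6 libraries (up to 4 a list by p), and otherwise the 2 with the smallest p could be given as values. Likeness was Pearson's r of log2 values, 5 genes for each of the 4. Promoters came from RefSeq on GRCm38.p6, and no coordinate was taken from the files.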

Additional observations from a re-analysis of the deposited data

How the results depend on the processing

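Over 224 recomputed differences of the 4 genes, 214 stayed within 1 SD of the value over 12 libraries and 10 moved further, with no test attached. The SD was the pooled SD of the populations compared, which A1 and B1 widen. Eomes D minus A, 2.51 over 12 libraries and 3.62 without A1 and B1, was thus within it. Some of the 224 could not move, as D minus C holds neither A1 nor B1, so the 214 are no measure of stability. The sign turned in Ctsw B minus A, 0.02 over 12 libraries, which was -0.06 with the G and C trend removed and -0.10 to 0.13 with 1 library left out, and in Ctsw D minus A, -0.09 over 12 libraries and 0.02 without A2. Eomes D minus C was 4.46 with a pseudocount of 0.1, 2.96 with 1 and 4.76 with limma-voom. Without A1 and B1, and without A1, B1 and C3, Eomes B minus A was 3.68 and Ctsw B minus A -0.19 in both, and Ctsw C minus B was 0.33 without all 3. With the G and C trend removed, Prf1 D minus A was -0.37 and Klrd1 D minus A -0.56.

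Counts of genes called depended on A1 and B1. D versus C called 481 genes (7 of the 41 list genes) in the 6 libraries alone, 765 (8) without A1 and B1 and 841 (13) without A1, B1 and C3. B versus A called 380 (1), 1094 (10) and 1638 (15) in the same order, 2 with the mouse as a replicate block, 3 with the G and C trend removed, and 1 list gene with limma-voom. D versus A called 3 genes in the 6 libraries, 886 (9) and 1357 (17) with those libraries left out. C versus B called 0 in the 6 libraries, where limma had 1030 genes below an unadjusted p of 0.05, and then 776 (7) and 873 (13).

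Leaving out 1 library at a time gave 1 to 398 genes and 0 to 2 list genes for D versus C, 0 to 461 and 0 to 2 for B versus A, 1 to 362 and 0 to 4 for D versus A, and 0 to 386 and 0 to 3 for C versus B. The highest counts came without B1 (D versus C, C versus B), A1 (D versus A) and C1 or C3 (B versus A). Over 12 libraries the block called 0 list genes in limma, as did the fit without it, with 14, 8, 9 and 4 of 41 below an unadjusted p of 0.05 without the block (D versus C, B versus A, D versus A, C versus B). Added after the data were seen, the replicate block in the 6 libraries gave 641 (9), 0, 1 and 0 genes in the same order, and without A1 and B1 964 (11), 1637 (12), 1665 (13) and 906 (8). The cause was not tested. Eomes at 9 to 26 reads in C limits how precisely a fold against C can be given.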

Other observations

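Of 24 genes of memory-phenotype T cells, 15 were tested, a list chosen with results of these data known. In the 6 D and C libraries alone, limma with Benjamini-Hochberg adjustment called 1 higher and 4 lower in D, and over 12 libraries it called none, with 7 below an unadjusted p of 0.05. Of all genes, 4.80% were called in the 6 libraries, and over 12 libraries 0.00998%, with 1817 below an unadjusted p of 0.05. Il2rb was the gene that rose. Il7r, the interleukin 7 receptor gene that naive and memory cells need for survival, fell to 77.5 to 86.2 RPKM in D, against 123 to 148 in C (-0.76 ± 0.08, SE; limma adjusted p = 0.000963). Il18r1, a chain of the interleukin 18 receptor, fell to 11.9 to 13.5 RPKM in D, against 16.6 to 21.1 in C (-0.58 ± 0.10; adjusted p = 0.0122, limma). Crip1 was at 121 to 131 RPKM in D, against 151 to 173 in C, and Ly6a, the Sca-1 gene, at 50.2 to 54.3 in D, against 67.4 to 93.3 in C, and both also fell. Between B and A in the 6 libraries none of the 15 was called, with 5 below an unadjusted p of 0.05, beside 3.79% called and 2379 below it of all genes, and Il7r was at 131, 83.7 and 71.9 RPKM in B1, B2 and B3, against 104, 162 and 162 in A1, A2 and A3. The median difference of the 15 was -0.03 between D and C and -0.09 between B and A on the log2 scale.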
